A study of Mus musculus with 18 samples.

Results

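The genes described here are 10 markers of border-associated macrophages, namely Mrc1, Cd163, Lyve1, Cd209f, Pf4, F13a1, Stab1, Cbr2, Siglec1 and Ms4a7. They were taken by gene symbol from the 36172 genes listed for the series. All 10 were among the 14803 genes that passed the filter on low values, which asked for more than 20 normalised counts in every library of at least 1 group.

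Border-associated macrophages are the resident macrophages of the meninges, the choroid plexus and the perivascular spaces of the brain. They take up material from the blood side and the cerebrospinal fluid through scavenger and lectin receptors, and these receptors set them apart from the microglia of the parenchyma. Both cell types express the fractalkine receptor Cx3cr1.

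The mice were 9 animals, all of the genotype Cx3cr1-Cre/Ert2+; NuTRAP+ and all given tamoxifen at about 3 months of age, also the controls. In this model the Cx3cr1 locus drives a tamoxifen-dependent Cre, and Cre switches on an EGFP-tagged ribosomal protein, so that every Cx3cr1-expressing cell in which recombination took place, microglia and border-associated macrophages alike, can contribute to the pull-down. At 3 to 4 weeks after tamoxifen the animals received 1 intraperitoneal injection of lipopolysaccharide (LPS, the bacterial endotoxin, 5 mg/kg) or of PBS. Brain was taken after 24 h. In this model the paper used such a delay after tamoxifen to keep short-lived circulating monocytes from being labelled. From each animal RNA was sequenced from the brain homogenate after clearing by centrifugation (Input) and from the ribosomes captured with an antibody to GFP (Positive). This gave 4 libraries each of Input PBS, of Positive PBS and of Input LPS, and 5 of Positive LPS. The PBS animals were females 268 and 506 and males 272 and 273. The LPS animals were females 266, 270, 271 and 507 and male 267.

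The 17 libraries used held between 22968939 and 35123345 estimated read counts each. The Input LPS library of animal 271 held 1252 and was left out. Levels are given as normalised counts, which are estimated counts divided by a size factor for each library. A gene was called when its log2 fold change was beyond 0.32 in either direction and its adjusted p from edgeR's quasi-likelihood test, corrected over all 14803 genes by the Benjamini-Hochberg method, was below 0.05. The 10 markers had a count above 0 in every library used, the lowest being an estimated count of 2 for Cd209f in the Input LPS library of animal 270, below the 3 counts taken as the floor of detection. The Positive fraction is not a sort of border-associated macrophages, and 12 homeostatic microglia markers summed to between 206618 and 254761 normalised counts in Positive PBS, where the 10 markers summed to between 11016 and 19420. These sums count reads and are not per length. The comparisons of fractions and of treatments share libraries, so their results are not independent of each other.

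The promoters of the markers that fell after LPS in the Positive fraction are shown because these genes fell in the same comparison. RefSeq start sites (GRCm38.p6) were at hand for 8 of the 10 markers, in 10 windows, and the windows of 250 bases before the start are printed for the 4 of those 8 that fell. They lie at chr2:14229164-14229413 for Mrc1, chr8:4105765-4106014 for Cd209f, chr5:90772185-90772434 for Pf4 and chr11:120732022-120732271 for Cbr2, each written 5′ to 3′ on the strand of its gene. Capitals mark a match, on either strand, to 1 of 3 motifs searched, GGAAGT (the core bound by PU.1 and other ETS factors), TGANTCA (AP-1) and TATAAA (the TATA box).
Mrc1: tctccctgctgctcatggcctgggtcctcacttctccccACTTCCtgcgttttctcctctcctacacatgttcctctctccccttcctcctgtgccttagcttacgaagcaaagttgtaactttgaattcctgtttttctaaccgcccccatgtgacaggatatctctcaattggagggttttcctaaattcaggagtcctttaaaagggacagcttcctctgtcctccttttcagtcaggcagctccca
Cd209f: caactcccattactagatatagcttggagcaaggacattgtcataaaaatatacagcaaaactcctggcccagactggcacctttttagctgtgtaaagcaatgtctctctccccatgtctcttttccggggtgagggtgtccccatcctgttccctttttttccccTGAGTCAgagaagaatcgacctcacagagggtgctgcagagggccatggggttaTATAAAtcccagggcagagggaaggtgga
Pf4: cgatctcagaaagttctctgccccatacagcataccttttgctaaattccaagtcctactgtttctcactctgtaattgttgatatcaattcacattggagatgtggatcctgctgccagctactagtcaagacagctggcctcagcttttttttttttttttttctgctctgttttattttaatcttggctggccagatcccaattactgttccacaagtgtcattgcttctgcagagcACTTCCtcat
Cbr2: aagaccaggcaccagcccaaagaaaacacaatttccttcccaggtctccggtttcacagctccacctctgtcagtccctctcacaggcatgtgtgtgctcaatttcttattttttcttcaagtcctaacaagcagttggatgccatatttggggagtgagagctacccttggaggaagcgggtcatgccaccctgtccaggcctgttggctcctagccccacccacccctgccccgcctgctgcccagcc

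The ETS core stood 211 bases before the start of Mrc1 and 10 bases before that of Pf4, and it was also found in windows of F13a1 and Ms4a7, at 35 and 15 bases. It was present in 4 of the 10 windows of the markers and in 19.7% of all 32851 promoter windows of this length. The AP-1 letters were found 83 bases before the start of Cd209f and 81 bases before a start of Ms4a7, and in 6.75% of all windows. A TATA box stood 29 bases before the start of Cd209f and was found in 12.4% of all windows. No motif of the 3 was found in the window of Cbr2. A match is a description of the letters and not a binding site.

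All 10 markers were enriched in the Positive fraction over Input, in PBS and in LPS animals. Background in this comparison was high, since 21.0% of the tested genes were called higher in Positive over Input in PBS animals and 27.6% in LPS animals. In PBS animals the log2 fold change ran from 3.14 for Cd163 to 4.37 for Pf4, with a median of 3.94 over the markers and 0 over all tested genes. In LPS animals the median was 3.17, against -0.03 over all tested genes, with Lyve1 the lowest (1.39 ± 0.35 SE, or 2.62-fold) and Cbr2 the highest (4.14 ± 0.28, or 17.6-fold). After PBS, Lyve1 had stood at 16.6-fold and Cbr2 at 16.2-fold. The 12 homeostatic microglia markers, of which 12 were called higher in each comparison, had medians of 4.24 and 4.03. Lists of other cell types differed in direction. After PBS, 7 of 7 fibroblast and 6 of 6 choroid plexus genes were called lower in Positive than in Input, at medians of -1.25 and -1.51, while 7 of 7 blood endothelium genes were called higher, at a median of 1.53. The split of all calls depended on the scaling. It was 3113 higher against 2785 lower in PBS animals, and 2224 against 3698 when the size factors were taken from all 18 libraries. In LPS animals the same figures were 4091 against 3817, and 3416 against 4494.

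**Figure D1:**
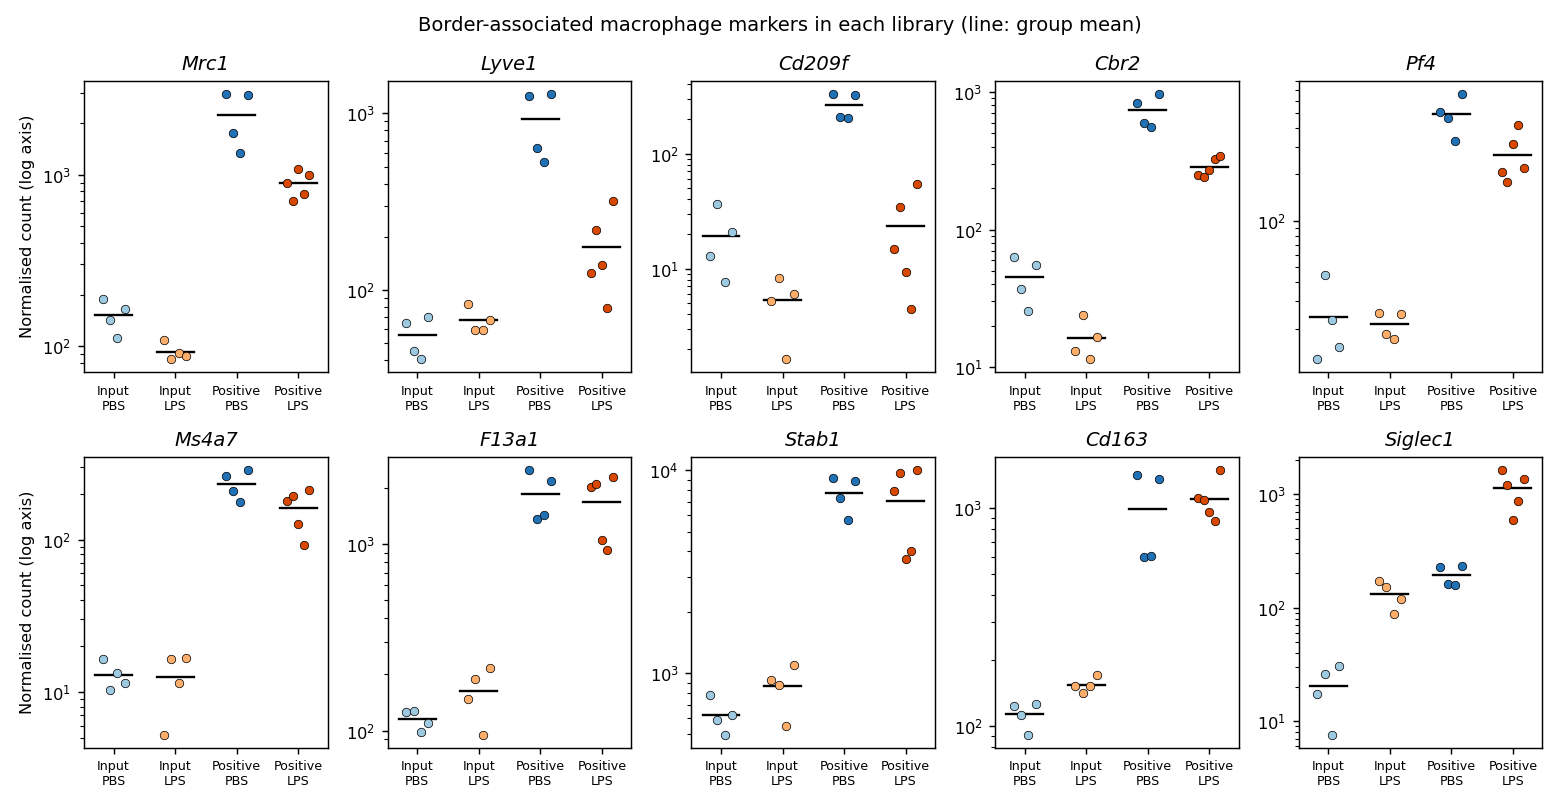
Normalised count of each marker (vertical axis, logarithmic) in every library of the 4 groups. Points are libraries and lines are group means. The Positive PBS libraries of all 10 markers lie above their Input PBS libraries, and the Positive LPS libraries lie below the Positive PBS libraries without overlap for Mrc1, Lyve1, Cd209f and Cbr2 and above them for Siglec1.

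LPS moved the markers in different directions in the Positive fraction. The mannose receptor Mrc1, the hyaluronan receptor Lyve1, the C-type lectin Cd209f, the carbonyl reductase Cbr2 and the chemokine Pf4 fell, while the sialic acid-binding receptor Siglec1 rose. The haemoglobin scavenger receptor Cd163, the scavenger receptor Stab1, the coagulation factor XIII subunit F13a1 and the membrane protein Ms4a7 were not called. Thus 5 of 10 markers were called lower and 1 higher, against 14.9% and 19.0% of all tested genes. The median log2 fold change was -0.71 over the markers and 0.01 over all tested genes. The libraries of PBS and LPS animals did not overlap for 5 of the 10 markers, and for 30.1% of all tested genes. In these bulk samples, fewer macrophages and less RNA per macrophage cannot be told apart.

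Lyve1 (chr7:110850607-110862953, mm10, minus strand) is a receptor for hyaluronan that marks perivascular and meningeal macrophages as well as lymphatic endothelium. Its normalised counts in Positive PBS were 1246, 640, 531.5 and 1282 (animals 268, 272, 273 and 506). In Positive LPS they were 125, 217.5, 139, 79.5 and 320 (animals 266, 267, 270, 271 and 507). Every LPS library was below every PBS library, and the highest of them, 320, was well under the lowest PBS library. Lyve1 was 5.23-fold lower (log2 fold change -2.39 ± 0.33 SE, adjusted p = 1.61e-05, edgeR).

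Cd209f (chr8:4102793-4105764, minus strand) belongs to the DC-SIGN family of lectins that bind mannose-rich glycans. It stood at 328, 207.5, 205 and 322 normalised counts in Positive PBS. In Positive LPS it stood at 14.7, 34.2, 9.27, 4.42 and 54.3. The groups did not overlap. Its fall was the largest of the 10 markers, 11.2-fold (log2 fold change -3.49 ± 0.49, adjusted p = 2.04e-05, edgeR). Cd209f passed the filter on low values through Positive PBS alone. Its lowest Positive LPS library, animal 271, held an estimated count of 4, near the floor of 3, so the size of the fall rests on few counts. Of the 42-base windows of its transcripts, 32.5% also occur in its neighbour Cd209g, so how reads were divided between these paralogs is uncertain. Chosen after their values were seen, 3 other members of the family were also lower, Cd209a by 3.84, Cd209b by 4.15 and Cd209g by 2.43 on the log2 scale. Their means in Positive LPS were 11.1, 6.10 and 6.65 normalised counts. These 3 genes too passed the filter through Positive PBS alone, where they were high, so their falls are no separate support.

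Mrc1 (chr2:14229414-14332023, plus strand) encodes CD206, the mannose receptor. In Positive PBS its normalised counts were 2945, 1740, 1332 and 2907. In Positive LPS they were 891, 700, 1079, 774 and 1001. The highest LPS library, animal 270, stayed below the lowest PBS library, animal 273. The log2 fold change was -1.33 ± 0.20 (adjusted p = 4.89e-05, edgeR).

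Cbr2 (chr11:120729485-120732021, minus strand), an enzyme that reduces carbonyl compounds, stood at 834, 595, 556 and 964 normalised counts in Positive PBS. In Positive LPS it stood at 251, 242, 271, 327 and 344. The LPS libraries lay close together and below all PBS libraries. The log2 fold change was -1.36 ± 0.21 (adjusted p = 6.63e-05, edgeR). Another gene model, Gm11771, shares 13.3% of its 42-base windows, so a part of its reads is of uncertain origin.

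Pf4 (chr5:90772435-90773383, plus strand) encodes platelet factor 4, a chemokine stored in platelets and also made by these macrophages. Its normalised counts in Positive PBS were 506, 462, 329 and 659. In Positive LPS they were 207, 177, 312, 419 and 218. The groups overlapped, since animal 271 after LPS stood above animal 273 after PBS. The log2 fold change was -0.87 ± 0.28 (adjusted p = 0.0173, edgeR). The call was lost without the Positive PBS library of animal 506 (log2 fold change -0.70, adjusted p = 0.0751) and without both animals numbered in the 500s (-0.64, adjusted p = 0.154). Of 9 platelet genes, 5 were tested, with a median log2 fold change of 0.14 in the Positive fraction. Of these, 2 were called lower, Gp9, a subunit of the von Willebrand factor receptor, at -1.61 and Gp1bb at -0.73. Itga2b, Gp1ba and Gp5, at 0.25, 0.14 and 0.24, were not called. In Positive over Input of PBS animals, Gp9 was called higher, at a log2 fold change of 4.66, as was Pf4, at 4.37. Itga2b, Gp1bb, Gp1ba and Gp5 were not called in that comparison, at -0.24, -0.02, 0.40 and 0.45. The summed platelet list ranged from 820 to 917 normalised counts in Positive PBS and from 399 to 768 in Positive LPS. Gp1bb had means of 537 in Positive PBS and 323 in Positive LPS, and in Input it was called lower, at -0.80. The part of platelet RNA in the fall of Pf4 was not tested.

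Siglec1 (chr2:131069220-131086765, minus strand), also called CD169, is an adhesion receptor of macrophages and a known interferon-stimulated gene. It stood at 229, 162, 158 and 233 normalised counts in Positive PBS. In Positive LPS it stood at 1633, 1211, 590, 870 and 1357. Every LPS library was above every PBS library. The log2 fold change was 2.53 ± 0.30 (adjusted p = 2.76e-06, edgeR). All 10 genes of an interferon-stimulated list were called higher too, with a median log2 fold change of 1.90. Among them Irf7, a transcription factor of the interferon response, rose by 2.53 on the log2 scale.

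The other scavenger and structural markers did not pass the test. Cd163 (chr6:124304651-124330527, plus strand) ranged from 596 to 1428 normalised counts in Positive PBS and from 876 to 1500 in Positive LPS. The log2 fold change was 0.15, with a 95% interval from -0.35 to 0.65 (adjusted p = 0.628, edgeR). Stab1 (chr14:31139017-31168641, minus strand) stood at 9145, 7320, 5700 and 8894 normalised counts in Positive PBS. In Positive LPS it stood at 7927, 9763, 3676, 3997 and 10053, so that animals 270 and 271 were below all PBS libraries and the others reached into or above their range. The interval of its log2 fold change ran from -0.71 to 0.45.

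F13a1 (chr13:36867178-37050244, minus strand) showed the same spread over animals. Its Positive LPS libraries stood at 2018, 2090, 1054, 926 and 2292 normalised counts, with animals 270 and 271 again the lowest, and its Positive PBS libraries ranged from 1365 to 2498. The interval of its log2 fold change ran from -0.72 to 0.41. Ms4a7 (chr19:11321039-11336146, minus strand), a tetraspanning membrane protein, ranged from 178 to 287 normalised counts in Positive PBS and from 92.8 to 210 in Positive LPS. Its log2 fold change was -0.54, with an interval from -1.08 to -0.01 (adjusted p = 0.089, edgeR). Animals 270 and 271 were also the lowest of the LPS animals for Ms4a7, Siglec1, Cd163 and Cd209f, but not for Mrc1, Lyve1, Cbr2 or Pf4.

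**Figure D2:**
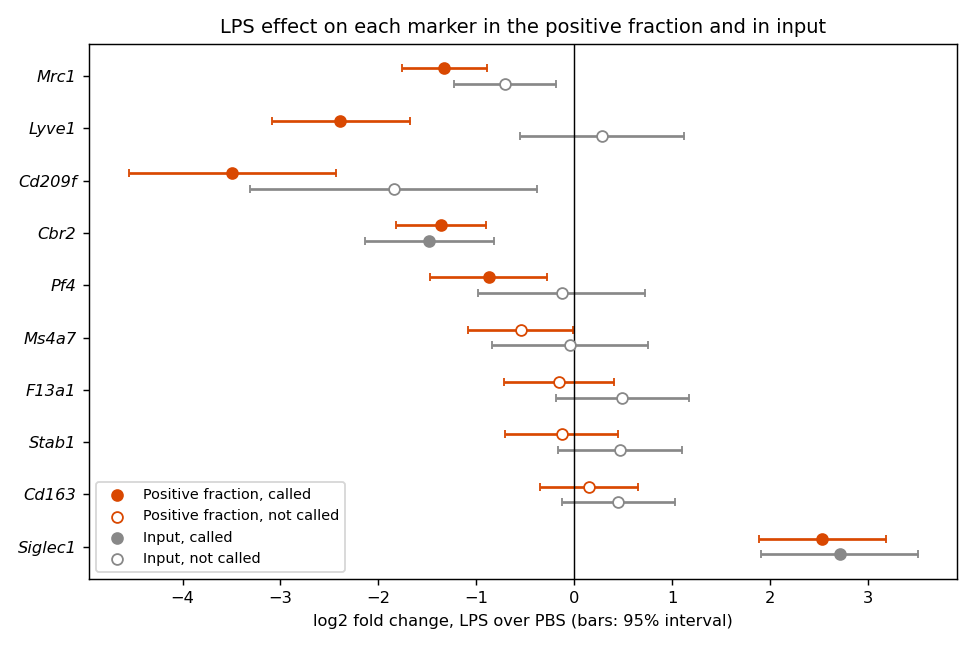
log2 fold change of LPS over PBS (horizontal axis) for each marker in the Positive fraction and in Input, with 95% intervals. Filled points were called. Mrc1, Lyve1, Cd209f, Cbr2 and Pf4 lie to the left in the Positive fraction, from -0.87 to -3.49, and Siglec1 lies to the right in both fractions. Lyve1, F13a1 and Stab1 lie on different sides of 0 in the 2 fractions, F13a1 and Stab1 without a call in either.

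In Input, where RNA was not selected through the tagged ribosomes, the markers were much lower and fewer passed the test. Siglec1 was called higher and Cbr2 lower, so 1 of 10 markers was called in each direction, against 7.16% of all tested genes called higher and 5.26% called lower. The median log2 fold change of the markers was 0.12, against 0 over all tested genes. Siglec1 stood at 17.3, 25.8, 7.60 and 30.5 normalised counts in Input PBS and at 172, 152, 87.85 and 120 in Input LPS. The LPS libraries were all above the PBS libraries (log2 fold change 2.71 ± 0.37, adjusted p = 5.92e-05, edgeR).

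Cbr2 in Input stood at 62.9, 37.15, 25.6 and 55.2 normalised counts after PBS and at 13.1, 23.9, 11.5 and 16.6 after LPS. The groups did not overlap, and the log2 fold change was -1.48 ± 0.30 (adjusted p = 0.0026, edgeR). Mrc1 in Input stood at 190, 141, 112 and 166 after PBS and at 109, 84.5, 91.1 and 87.6 after LPS. Its groups did not overlap either, but the log2 fold change of -0.71 ± 0.24 did not pass the correction (adjusted p = 0.0592, edgeR). With sex as a covariate it did, at -0.83 (adjusted p = 0.002). Groups did not overlap for 4 of the 10 markers in Input, Cd163 being the fourth, and for 24.1% of all tested genes.

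Cd209f was near the limit of counting in Input, at 12.8, 36.1, 7.60 and 21.0 normalised counts after PBS and at 5.25, 8.27, 1.64 and 6.04 after LPS. The log2 fold change was -1.84 ± 0.68 (adjusted p = 0.0799, edgeR), and the groups overlapped. Pf4, with an interval from -0.98 to 0.72, and Ms4a7, from -0.84 to 0.75, were likewise measured with little precision in Input. F13a1 and Stab1 had positive log2 fold changes of 0.49 and 0.47 that did not pass the test (adjusted p = 0.327 and 0.317, edgeR).

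Whether the LPS effect differed between the fractions was tested as the difference of the log2 fold changes. Lyve1 was the only marker called in this test, in which 1.42% of all tested genes were called lower. Its normalised counts in Input were 64.7, 45.4, 40.8 and 70.5 after PBS and 83.0, 59.7, 59.1 and 68.0 after LPS, so the groups overlapped and the log2 fold change was 0.28, with an interval from -0.55 to 1.12. The difference between Positive and Input was -2.67 ± 0.51 (adjusted p = 0.00321, edgeR). Because Input and Positive came from the same animals, the test was also run with the animal as a block. Mrc1 (-0.54, adjusted p = 0.0483) and Stab1 (-0.50, adjusted p = 0.0252) were then called as well, which made 3 markers in place of 1. With the block, calls over all tested genes also rose, from 1018 to 1915, and those called lower from 210 to 597.

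The ratio of Positive to Input within each animal shows the same for Lyve1. It ran from 13.02 to 19.25 in the 4 PBS animals and from 1.51 to 4.70 in the 4 LPS animals with both libraries. The ranges did not overlap. For Mrc1 the ratio ran from 11.89 to 17.5 after PBS and from 8.15 to 11.84 after LPS, so its ranges nearly met. Stab1 ran from 11.4 to 14.2 and from 6.66 to 11.1, so these 2 markers also had separate ranges. The share of all tested genes with separate ranges of this ratio was not determined. For Cd209f the ranges, 5.75 to 27.0 and 2.80 to 8.99, overlapped. For Cbr2 the median was 16.7 after PBS and 19.9 after LPS. The Positive LPS and Input LPS libraries themselves overlapped for Lyve1 and Cd209f and for no other marker.

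**Figure D3:**
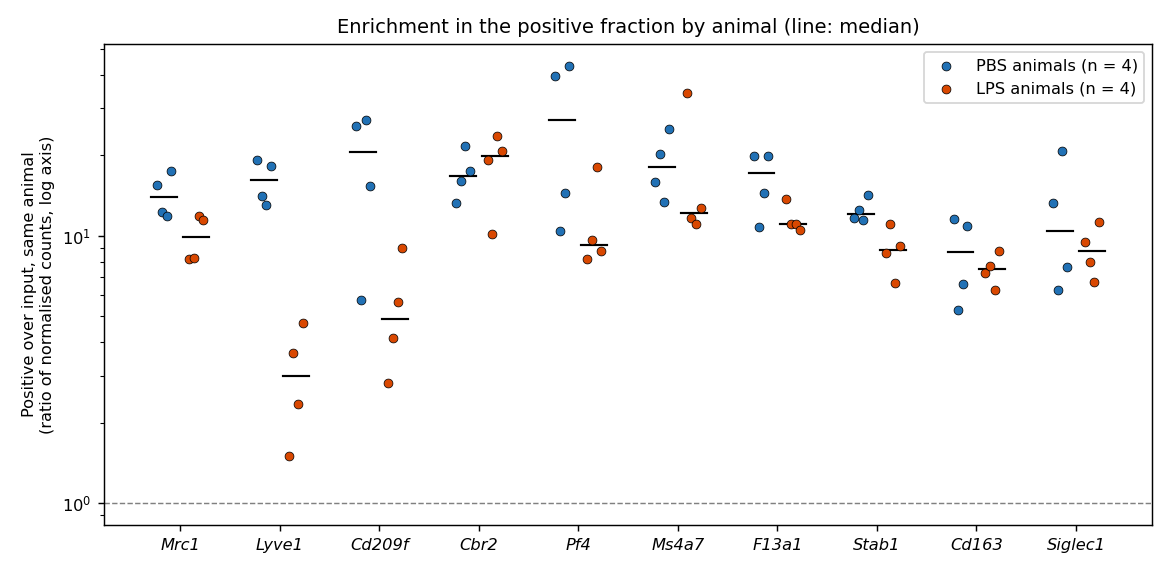
Ratio of the normalised count in Positive to that in Input of the same animal (vertical axis, logarithmic) for each marker, in PBS and LPS animals. Points are animals and lines are medians. Lyve1 stands at 13.02 to 19.25 in PBS animals and at 1.51 to 4.70 in LPS animals, and no marker falls below 1.

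Lyve1 is also made by lymphatic endothelium. Of 6 genes of that cell type 5 were tested, and 3 were called higher after LPS in Input, among them Flt4, the receptor of the lymphatic growth factor VEGF-C, which rose by 0.67 on the log2 scale, and Pdpn, podoplanin, which rose by 0.70. Prox1, the transcription factor that defines lymphatic endothelium and is also made by neurons, had a log2 fold change of 0.20 that was not called. The summed list stood between 3438 and 5685 normalised counts in Input PBS and between 4575 and 5052 in Input LPS. The larger part of this sum was Reln, with means of 3713 in Input PBS and 3532 in Input LPS. Reln was not called in Input (log2 fold change -0.07), so the sum says little about the other genes of the list. The part of lymphatic endothelium in the Input level of Lyve1 was not tested.

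Per kilobase of merged exons, the order of the levels in Positive PBS was Stab1 (755 ± 155 normalised counts per kb, SD, n = 4), Pf4 (678 ± 188.5), Cbr2 (556 ± 147), Mrc1 (350 ± 129), Lyve1 (317 ± 135), F13a1 (277 ± 83.2), Cd163 (183 ± 84.5), Cd209f (134 ± 34.5), Ms4a7 (52.4 ± 11.12) and Siglec1 (27.4 ± 5.75). Neighbours in this order differed by less than the larger of their SDs, except from Cbr2 to Mrc1, from F13a1 to Cd163, from Cd209f to Ms4a7 and from Ms4a7 to Siglec1. In Positive LPS the order was Stab1 (688.5 ± 299, n = 5), Pf4 (370 ± 137), F13a1 (249 ± 94.4), Cbr2 (216 ± 34.5), Cd163 (203 ± 43.9), Siglec1 (158.5 ± 57.3), Mrc1 (139.5 ± 24.5), Lyve1 (60.4 ± 32.4), Ms4a7 (36 ± 10.97) and Cd209f (11.8 ± 10.4). Here the neighbours that differed by more were Stab1 and Pf4, Mrc1 and Lyve1, and Ms4a7 and Cd209f. Siglec1 moved from the lowest level to the sixth place, and Cd209f became the lowest.

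The Positive PBS libraries of the 2 females stood above those of the 2 males for all 10 markers. This order was seen in 24.8% of all tested genes. The ratio of the female to the male mean ran from 1.39 for Stab1 to 2.33 for Cd163, with a median of 1.57 over the markers and 1.01 over all tested genes. For Cd163 the females stood at 1428 and 1364 normalised counts and the males at 596 and 601. For Lyve1 the females stood at 1246 and 1282 and the males at 640 and 531.5. Among the other lists, 17 of 28 further macrophage genes of the brain borders and 5 of 12 homeostatic microglia markers had both females above both males, with median ratios of 1.24 and 1.11. The same order held for 5 of 6 MHC class II genes, at a median ratio of 1.445, and for 2 of 5 monocyte genes, at 1.75. The neutrophil list had a median ratio of 2.23, although 0 of its 6 tested genes had both females above both males. The higher values in females were thus not limited to the 10 markers. In Input PBS the same held for 5 of the 10 markers, against 26.8% of all tested genes. With 2 libraries of each sex, this order has no test, and sex cannot be told apart from other differences between these 4 animals. The PBS group had 2 males of 4 and the LPS group 1 of 5. With sex as a covariate the same number of markers, 6, was called after LPS in the Positive fraction.

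**Figure D4:**
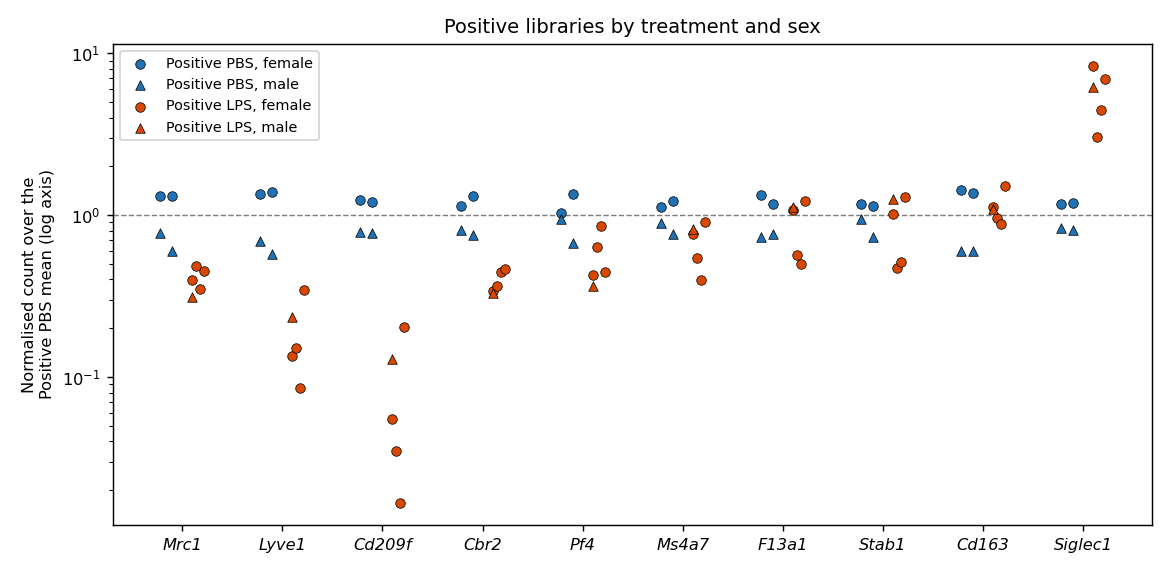
Normalised count of each marker in the Positive libraries, divided by the mean of the Positive PBS libraries (vertical axis, logarithmic), with circles for females and triangles for males. In the PBS libraries both circles lie above both triangles for all 10 markers. The single LPS male lies below all LPS females for Mrc1, Cbr2 and Pf4 and within their range for the other markers.

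Other genes used to mark these macrophages moved in both directions in the Positive fraction. Of 30 such genes 28 were tested, and 14 were called lower and 6 higher, with a median log2 fold change of -0.66. Among the most abundant were Apoe, the lipid carrier, which fell by 0.68, Gas6, the ligand of the TAM receptors, which fell by 0.81, and lysozyme Lyz2, at 0.18 and not called. Chosen after their values were seen, the lectin Mgl2 fell by 3.11 and the Ms4a7 relatives Ms4a6b and Ms4a6c rose by 2.63 and 3.78 on the log2 scale. In Input 5 of these genes were called higher and 2 lower.

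Of 6 tested genes of antigen presentation by MHC class II, 4 were called lower and 1 higher in the Positive fraction, with a median log2 fold change of -1.55. The class II chains H2-Aa and H2-Ab1 fell by 2.03 and 1.66, the invariant chain Cd74 rose by 0.60, and H2-DMb1, which helps to load peptides, stood at 0.36 and was not called. H2-DMa was listed at 0 in every library. The homeostatic microglia list had a median of -0.68, with 8 of 12 genes called lower and 1 higher. The complement component C1qa rose by 0.49, while Cx3cr1 itself, whose locus drives the Cre, had a log2 fold change of -0.20 (adjusted p = 0.411, edgeR), and Csf1r, the receptor for the survival factor of these cells, had -0.16 and was not called. The medians of the macrophage markers and of the homeostatic microglia list thus lay close together, and no test of their difference was made.

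Genes for ligands, sheddases and haem handling around these receptors were followed as a list of 19, of which 16 were tested. In the Positive fraction 6 were called higher and 4 lower, with a median log2 fold change of 0.18. The 4 most abundant were the ferritin chains Fth1, which rose by 0.86, and Ftl1, at 0.15 and not called, the membrane protease Adam10, at 0.26 and below the fold required, and Sparc, a collagen-binding ligand of Stab1, at -0.44 (adjusted p = 0.0513, edgeR). Chosen after their values were seen, Adam17, a protease that sheds membrane receptors, rose by 0.83 and haem oxygenase Hmox1 by 1.73. Haptoglobin Hp, the partner of haemoglobin in binding to Cd163 and chosen in the same way, rose by 5.79. The 4 genes called lower were Slc40a1 (-1.97), Has3 (-0.71), Hyal1 (-0.47) and Il34 (-0.43), so the list moved in both directions. In Input 4 of the 16 were called higher.

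**Figure D5:**
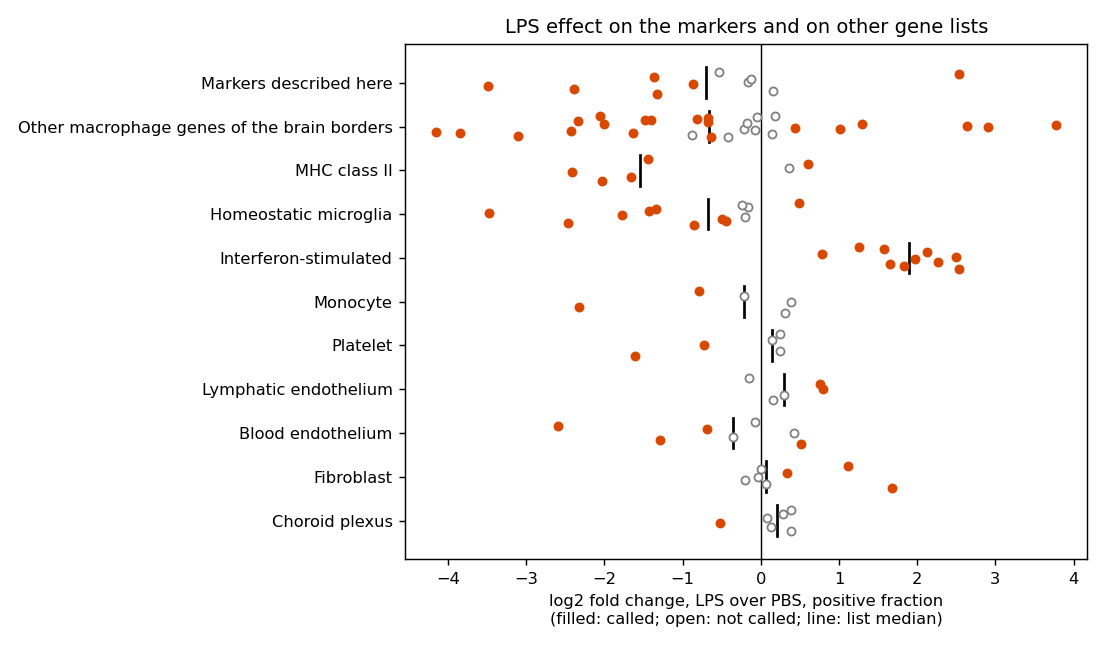
log2 fold change of LPS over PBS in the Positive fraction (horizontal axis) for the 10 markers and for the genes of 10 other lists (rows). Each point is a tested gene, filled where called, and the lines are list medians. The median is -0.71 for the markers, -0.66 for the other macrophage genes, -1.55 for MHC class II, -0.68 for homeostatic microglia and 1.90 for interferon-stimulated genes.

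Markers of other cells that a brain sample could hold were followed in the same test. Of 5 tested monocyte genes, 2 were called lower in the Positive fraction, Ccr2 at -2.33 and Fn1 at -0.79. The median log2 fold change of the list was -0.22. Ly6c2, the defining surface marker, stood at 0.31, Vcan at 0.38 and F10 at -0.22, and these were not called. Of 6 tested neutrophil genes, 5 were called higher in the Positive fraction and 5 in Input, with medians of 2.30 and 1.94. Of all tested genes, 19.0% and 7.16% were called higher. Mmp8, with means of 6.49 in Positive PBS and 15.9 in Input PBS, passed the filter through LPS libraries alone. In PBS animals 4 of the 6 were called lower in Positive than in Input, at a median of -1.88. Ly6g was listed at 0 in every library. The summed neutrophil list ranged from 140 to 317 normalised counts in Positive PBS and from 427.5 to 1153 in Positive LPS. Of 7 blood endothelium genes 3 were called lower and 1 higher in the Positive fraction, of 7 fibroblast genes 3 were called higher, among them decorin Dcn, which rose by 1.68, and of 6 choroid plexus genes 1 was called lower. No lymphocyte gene passed the filter, and their summed level was at most 42.5 normalised counts in any library. The part of these cells in the changes of the markers was not tested.

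The genes whose profile was most like the mean profile of the 10 markers over all 17 libraries were Pon3 and Ccl6 (Pearson r = 0.989 each), Tmem173 (0.987), Mylip (0.986) and P2rx7 (0.985). Over all libraries this likeness mostly follows the enrichment in the Positive fraction, which the libraries of a fraction share. Within the 9 Positive libraries the closest were Fam84b (0.973), Scgn (0.971), Rasal3 (0.969), Itch (0.953) and Dvl3 (0.951). The markers themselves were close to their mean there in the case of Ms4a7 (0.942), Lyve1 (0.898) and Cd209f (0.844), less so for Pf4 (0.445), and opposite for Siglec1 (-0.422). These are descriptions over few libraries of the same 4 groups.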

How the data were processed

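RNA from Input and Positive fractions was converted to strand-specific polyA libraries and sequenced as paired ends. Per the study's methods, the authors trimmed and aligned the reads to Mm10 in Strand NGS. The deposited table holds estimated counts per gene, not whole for 81.7% of the values above 0, and log2 values that the authors normalised with the DESeq algorithm over 18 libraries and shifted per gene. Only the estimated counts, rounded to whole numbers, entered the main test.

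Size factors were medians of ratios over 15766 genes and ran from 0.766 to 1.32. Genes with more than 20 normalised counts in every library of at least 1 group were kept. One edgeR quasi-likelihood model (edgeR 4.0.16, R 4.3.3) was fitted over the 4 groups with 13 residual degrees of freedom, and the script was tested on simulated data. The standard error of a log2 fold change is its size divided by the square root of F, and 95% intervals use the t distribution. Alternatives included DESeq2 1.42.0 and limma 3.58.1. Replicates were separate animals. Input and Positive of the same number came from the same animal, and their deviations from the group means correlated at 0.16 to 0.519 over 8 pairs.

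The markers and lists were chosen with earlier results of these data known. All 10 markers are named, of each other list the 4 tested genes with the highest mean normalised count, with exceptions stated and some genes not reported here, and by likeness the 5 genes with the highest r. Lengths are merged exons of GENCODE, and shared 42-base windows were counted over its transcripts.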

Additional observations from a re-analysis of the deposited data

Results flagged for a closer look

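The effect of LPS on Lyve1 differed between the fractions, by -2.67 on the log2 scale (Positive minus Input), in a test of the difference itself. In the Positive fraction every LPS library was below every PBS library, and in Input the groups overlapped. In a screen for a library far from the others of its group, 40 group values (10 markers in 4 groups) were looked at and 0 stood out, where chance would flag about 1 in 20.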

How the results depend on the processing

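Each log2 fold change was recomputed under up to 26 alternatives for the LPS effects and up to 27 for the comparisons of fractions, among them leaving out each of the 17 libraries in turn. Of all the values for the 10 markers so obtained, 1287 kept their direction and their side of the threshold, 12 passed it newly, 3 lost it and 14 turned direction, in results that were called neither before nor after. Of these, Pf4 in Input turned to 0.0005 in a limma fit, to 0.0346 on the authors' log2 scale and to 0.3447 when the Input PBS library of animal 272 was left out. Leaving out single libraries took the LPS effect in the Positive fraction from -0.0328 to 0.375 for Cd163, from -0.2912 to 0.0151 for F13a1 and from -0.2877 to 0.0351 for Stab1, that in Input from -0.3396 to 0.3447 for Pf4 and from -0.222 to 0.2039 for Ms4a7, and the difference between fractions from -0.0862 to 0.3462 for Cbr2 and from -0.4443 to 0.1003 for Siglec1. Besides the lost calls of Pf4 given above, Cd209f in Positive over Input of LPS animals was not called without the animals numbered in the 500s (1.63, adjusted p = 0.0802). In Input, Mrc1 passed under 7 alternatives and Cd209f under 3, and DESeq2 called 4 markers in place of 2. With the animal as a replicate block, 3 markers in place of 1 and 1915 genes in place of 1018 were called for the difference between fractions, and no call of a marker in Positive over Input changed. No block was possible for the LPS effects, which compare different animals. Without the animals numbered in the 500s, 1083 genes in place of 1839 were called after LPS in Input and 323 in place of 1018 for the difference. Leaving out single libraries gave 5 to 6 markers called after LPS in the Positive fraction, 2 to 3 in Input and 749 to 1263 genes called for the difference. Scaling over all 18 libraries moved the median of all genes in Positive over Input to -0.12 (PBS) and -0.11 (LPS), and the deposited log2 values moved it to -0.13 and -0.14. When only the libraries compared were fitted, Cd209f, Pf4 and Ms4a7 did not pass the filter for the LPS effect in Input, nor did Cd209f for Positive over Input of LPS animals. Depth limits Cd209f, Ms4a7 and Pf4 in Input, where their counts are low.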
